A study of Mus musculus with 80 samples.

Results

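The step from 24 to 48 h of 2i was examined in wild-type E14 mouse embryonic stem cells (ESCs), by reduced representation bisulfite sequencing (RRBS), which reads cytosine methylation in CpG-rich restriction fragments. The genome was divided into tiles of 500 bp, and an autosomal tile was kept if it held 20 or more methylation calls at 3 or more positions in each of 4 libraries. These were 2 replicates each of E14 collected 24 h and 48 h after transfer to 2i, and they are 4 of the 80 samples of the series. Of 497056 autosomal tiles with any call in these libraries, 61875 were kept. The rule used coverage only and no methylation level.

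E14 is labelled as wild type, with no engineered allele. The cells were grown with LIF in medium containing fetal calf serum, and then moved to serum-free N2B27 medium with LIF, the MEK inhibitor PD0325901 and the GSK3 inhibitor CHIR99021, together called 2i. All 4 libraries had been in 2i, and serum libraries of the same line gave the starting level. Other lines used here for comparison were UHRF1 WT and UHRF1 KO, both labelled with the E14 background strain, and the pair TET WT and TET TKO (without functional Tet genes), from a mixed C57, 129 and FVB background. Floxed lines of the study were recombined by a tamoxifen-inducible Cre shortly before the experiment. The labels do not say whether the 2 replicates of a group were separate cultures, so the spread between them may be technical.

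Methylation of CpG sites is copied at replication by DNMT1, which the UHRF1 protein brings to newly made DNA. De novo methyltransferases add new marks, and TET enzymes oxidise 5-methylcytosine. Where copying falls short, methylation is diluted with each division. Bisulfite reads count 5-methylcytosine and 5-hydroxymethylcytosine alike as methylated, and methylation of a tile here is the percent of its calls that were methylated.

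The libraries held 9581412 and 12874625 calls at 24 h and 14270850 and 16878110 calls at 48 h. A kept tile had a median of 58 and 78 calls at 24 h and of 87 and 102 calls at 48 h. The 48 h libraries were thus the deeper pair. On the mitochondrial genome, where calls mostly reflect unconverted cytosine, 0.306% and 0.248% of calls were methylated at 24 h and 0.556% and 0.83% at 48 h. No RNA was measured at 48 h, so the cell type could only be checked in E14 RNA at 24 and 72 h. The 8 ESC markers, Pou5f1, Sox2 and Nanog among them, stood at 5.72 to 10.7 on the deposited log2 scale at 24 h, and at or above the 96.1 percentile of all genes. The 5 primitive endoderm markers stood at -2.64 to -0.12, the 5 trophoblast markers at -5.60 to 4.30 (Tfap2c highest) and the 5 fibroblast markers at -3.51 to 5.35 (Vim highest).

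Methylation fell across the step. The mean over the 61875 tiles was 37.99% and 37.0% in the 24 h libraries and 31.4% and 31.5% in the 48 h libraries. Both 48 h values lay below both 24 h values. The group means were 37.5% ± 0.70 at 24 h and 31.5% ± 0.11 at 48 h (SD, n = 2), a difference of -6.03 points, so 83.9% of the 24 h level was left. The gap exceeded the spread between replicates, but the exact two-sided permutation test of 2 against 2 libraries gave p = 0.333, the smallest it allows. With all calls of the kept tiles pooled, which weights tiles by depth and so favours unmethylated CpG-rich tiles, the difference was -2.37 points.

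The fall came from the upper part of the range. Tiles at 80% or more made up 26.0% and 23.6% of tiles at 24 h and 14.8% and 15.1% at 48 h. Of 15581 tiles with a mean of 80% or more at 24 h, 8521 (54.7%) were still there at 48 h and 94 were under 40%. Of 11906 tiles between 40% and 80% at 24 h, 3798 (31.9%) were under 40% at 48 h. By contrast, 28293 tiles were under 10% at both times, and no tile went from under 40% to 80% or more. The median change over tiles was -1.54 points, with quartiles of -10.3 and 0.41. A mean difference of 20 points or more was seen as a fall in 6817 tiles and as a rise in 18. Replicates of one time differed that much in 2358 tiles at 24 h and in 1171 at 48 h, where single libraries and not means are set against each other.

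**Figure D1:**
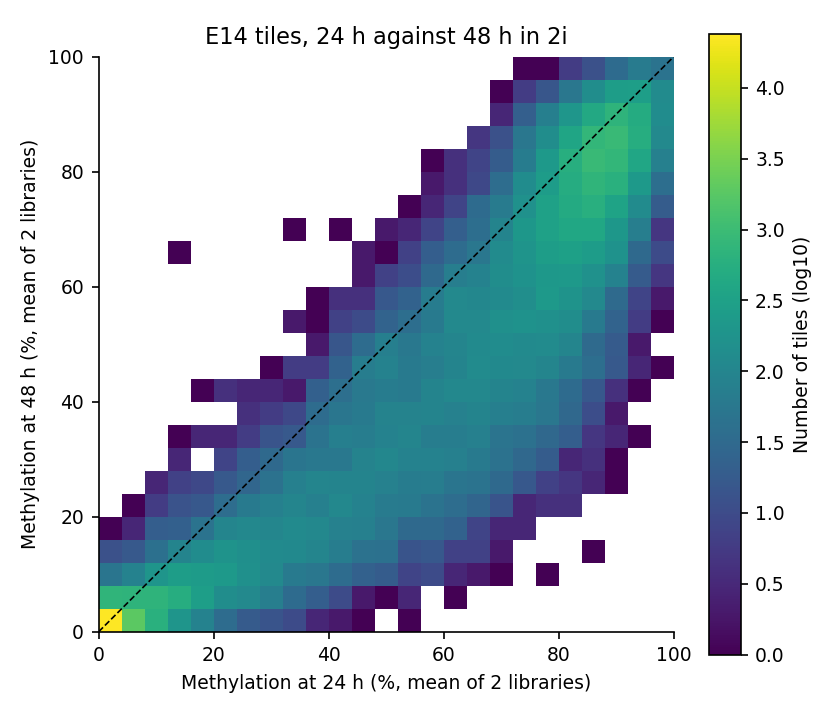
Methylation of the 61875 E14 tiles at 24 h (x axis, percent, mean of 2 libraries) against 48 h (y axis, same unit), as the number of tiles per 4-point square on a log10 colour scale, with the line of equal levels dashed. Most squares off the corner at 0% lie below the line, and 6817 tiles fell by 20 points or more while 18 rose by as much.

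Single tiles were tested with a quasi-binomial logistic model on the methylated and unmethylated calls. Between 24 and 48 h, 5463 tiles were called lower (adjusted p under 0.05 and 20 points or more), which is 8.83% of the tiles tested. Only 7 were called higher (0.0113%). Of the 5463 tiles, 5454 had both 48 h libraries below both 24 h libraries. That order, without any threshold on size, was found in 39.6% of all tiles, and the opposite order in 14.2%. With limma on arcsine levels, 0 tiles passed the adjusted threshold and 15157 had an unadjusted p under 0.05. The quasi-binomial test with 1 dispersion prior without trend also made 0 calls, with 10795 tiles at an unadjusted p under 0.05. Leaving out 1 of the 4 libraries left 651 to 1732 calls, fewest without 48 h replicate 2, and 382 of the tiles called lower were called in each of these 4 fits. Tiles near the depth limit behaved alike in mean: those with 20 to 24 calls in their shallowest library (7293 tiles) differed by -8.73 points, and tiles just outside the rule with 15 to 19 calls (7807 tiles) by -8.36 points.

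The size of the step depended on the level in serum, which was measured in libraries that took no part in the comparison. Among the 14222 tiles at 80% or more in serum, the 24 h libraries stood at 87.5% and 86.1% and the 48 h libraries at 81.6% and 81.8%, a difference of -5.12 points that left 94.1% of the 24 h level. Tiles at 40% to 60% in serum (4473) stood at 62.4% and 59.9% at 24 h and at 41.8% and 42.2% at 48 h, a difference of -19.2 points with 68.7% left. Tiles at 20% to 40% (3670) went from 42.5% and 40.7% to 23.0% and 23.3%, a difference of -18.5 points with 55.7% left. In relative terms the class at 10% to 20% (2675 tiles) lost most, since 50.0% of its 24 h level was left. The 29917 tiles under 10% in serum were at a mean of 2.39% and 2.26% at 24 h and 1.72% and 1.78% at 48 h. Their median change was 0.129 points, so the typical tile of this class did not fall, and 0.257% of them were called lower. From 24 to 48 h intermediate tiles thus changed more than tiles that were nearly full. Their 24 h libraries stood above serum, and set against serum the 48 h means of the classes differed less, by -6.67 points at 20% to 40%, -8.58 at 40% to 60%, -8.75 at 60% to 80% and -7.08 at 80% or more. Time and any difference in library preparation between the 24 h libraries and the others cannot be told apart from the labels. The gap between the 40% to 60% class and the class of 80% or more moved by -14.04 points from 24 to 48 h, which is larger than the replicate spread of the gap, with exact permutation p = 0.333, the smallest possible.

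Called tiles followed the same order. Of tiles at 20% to 40% in serum 36.9% were called lower, of those at 40% to 60% 38.4%, of those at 60% to 80% 23.1%, and of those at 80% or more 2.55%. The 8143 tiles between 20% and 60% were 13.2% of the tiles measured in serum and held 3073 calls, or 56.3% of the tiles called lower. In these intermediate classes the 24 h libraries also stood above serum. Tiles at 20% to 40% had a mean of 29.8% in serum, lower than either 24 h library and higher than either 48 h library.

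**Figure D2:**
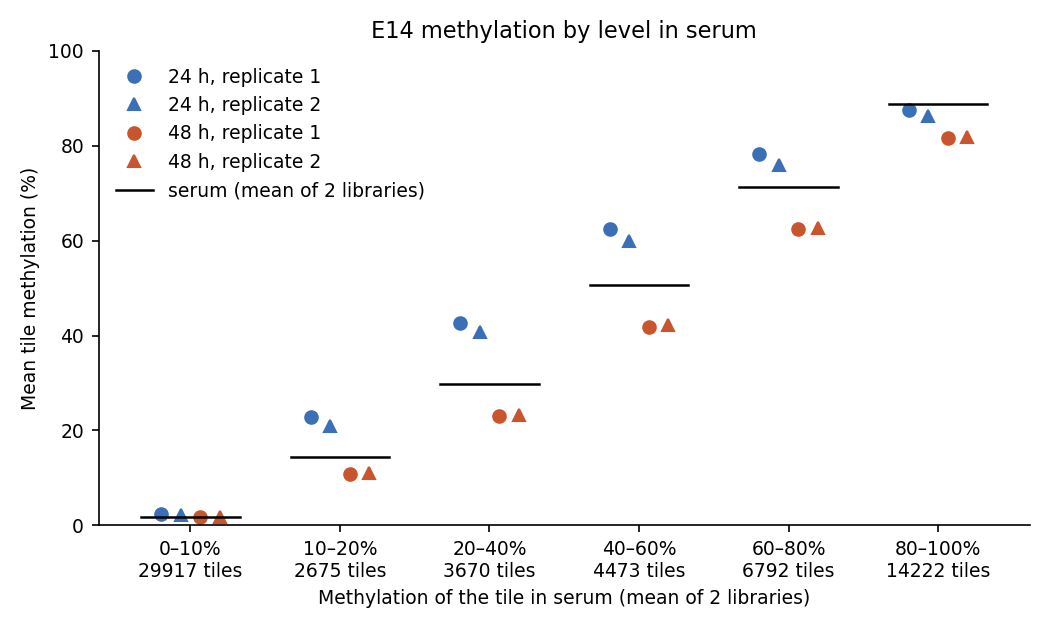
Mean tile methylation (y axis, percent) in each of the 4 E14 libraries for tiles grouped by their level in serum (x axis), with circles for replicate 1, triangles for replicate 2 and a black line for the serum mean of each class. The 48 h libraries lie below the 24 h libraries in all 6 classes, and the gap is widest at 40% to 60% in serum (-19.2 points) and at 20% to 40% (-18.5 points).

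CpG density was described next, as the number of positions read in a tile. Methylation in these libraries is low in CpG-dense tiles, the typical state of CpG islands. The 6927 tiles with more than 40 positions stood at 1.04% and 0.981% at 24 h and at 1.02% and 1.05% at 48 h. Tiles with 3 to 5 positions (15089) differed by -9.13 points and those with 6 to 10 (18078) by -9.23 points. Within the 21014 tiles at 60% or more in serum, the order from 24 to 48 h turned, up to 40 positions. The change was -7.55 points with 3 to 5 positions, -8.53 with 6 to 10, -10.3 with 11 to 20 (1553 tiles) and -12.9 with 21 to 40 (59 tiles). The 1 tile with more than 40 positions changed by -0.882 points. This order rests on the 24 h level, which stood above serum with 11 to 20 positions (83.1% against 79.5%). With 3 to 5 positions it stood below serum (83.8% against 84.2%). Set against serum, the 48 h level fell less in the denser of these classes. It went from 84.2% to 76.3% with 3 to 5 positions and from 79.5% to 72.9% with 11 to 20. Denser methylated tiles thus also had a lower level in serum, and the part of serum level in these orders was not tested.

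Across the genome the step was broad. In the 21014 tiles at 60% or more in serum, the mean change ranged over the 19 autosomes from -7.18 points on chromosome 3 to -9.08 points on chromosome 11. On the X chromosome, which was left out of the rule, 202 such tiles changed by -6.81 points. Of 735 windows of 1 Mb that held 10 or more of these tiles, all 735 had a negative mean change, and 727 had one in both replicate pairs. The window change had a median of -8.59 points, and 5% to 95% of windows spanned -13.4 to -3.83 points. The lowest window was chromosome 19, 43000001 to 44000000 (11 tiles, -19.6 points), and the highest chromosome 3, 137000001 to 138000000 (12 tiles, -0.533 points).

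Differences between tiles were partly shared between replicates. Across the 21014 tiles, the change from replicate 1 at 24 h to replicate 1 at 48 h had a Pearson correlation of 0.362 with the change in the replicate 2 libraries. The 2 changes share no library, but the points share the tiles and so their CpG content. For tiles directly next to each other (1097 pairs), the change of one tile in replicate 1 had a correlation of 0.185 with the change of its neighbour in replicate 2. This was 0.0502 at 1 to 2 kb (1357 pairs), 0.0365 at 2.5 to 10 kb (5338 pairs), 0.00309 at 10.5 to 100 kb (5385 pairs) and 0.0264 at 100500 to 1000000 bp (4038 pairs). Averaged over the 735 windows of 1 Mb, the changes in the 2 replicate pairs had a correlation of 0.512. Successive tiles called lower lay a median of 101500 bp apart. Of 19293 pairs of adjacent tested tiles, 1266 had a call in at least 1 tile, and both tiles were called in 243. Over all tiles 8.83% were called lower, and clustering of calls was not tested.

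Single CpG positions lost the top of their range. In methylated tiles (60% or more in serum), 24797 positions had 10 or more calls in all 4 libraries. A level of 80% or more was found at 75.4% and 70.7% of them at 24 h and at 50.5% and 50.7% at 48 h. Positions between 20% and 80% rose in share from 23.2% and 27.8% to 47.8% and 47.7%, whereas those under 20% made up 1.38% and 1.44% at 24 h and 1.72% and 1.61% at 48 h. The gain was thus in partly methylated positions. The level was lower at 48 h at 73.1% of positions and higher at 26.0%. In 800 tiles with 5 or more such positions, a median of 80% of the positions of a tile were lower at 48 h, and in 239 tiles every position was.

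H3K9me2, dimethylation of lysine 9 of histone H3, is a mark that UHRF1 can bind. Methylated tiles were split into 5 classes of equal size by the ratio of H3K9me2-bound to input calls in 10-kb windows of ChIP followed by bisulfite sequencing. The labels of the 2i ChIP libraries give no hours, and the paper describes these cells as long-term 2i. These classes thus do not give H3K9me2 at 24 or 48 h. With the 2i ChIP libraries, the lowest class (4197 tiles) went from 82.7% and 81.1% to 71.9% and 72.0%, a difference of -9.96 points. The highest class (4196 tiles) went from 85.5% and 84.3% to 79.4% in both 48 h libraries, a difference of -5.50 points. The change shrank in order over the 5 classes, -9.96, -9.83, -8.70, -6.97 and -5.50 points. With the serum ChIP libraries it ran from -10.0 points in the lowest class to -6.60 in the highest. The gap between the lowest and highest classes of the 2i classification moved by -4.46 points, beyond its replicate spread, with exact permutation p = 0.333, the smallest possible. Part of this shift lay in the 24 h level, which stood above serum in the lowest class (81.9% against 80.3%). In the highest class it stood below serum (84.9% against 85.7%). Set against serum, the 48 h means of these classes, 72.0% and 79.4%, differed less in their fall. The highest classes also had a higher level in serum, 85.7% against 80.3% in the 2i classification, and the part of that level was not tested.

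TET dependence was read from the other pair of lines in serum. Among tiles at 20% to 60% in E14 serum, 4055 had a level at least 20 points higher in TET TKO than in TET WT, and 509 differed by less than 5 points. Both sets had a like level in E14 serum, 42.0% and 41.3%. The 4055 tiles went from 57.5% and 54.8% at 24 h to 32.97% and 33.3% at 48 h in E14, a difference of -23.0 points, and 2109 of them (52.0%) were called lower, beside 37.7% of all 8143 tiles in this range of serum level and 8.83% of all tiles. The 509 tiles went from 46.6% and 45.2% to 36.1% and 36.5%, a difference of -9.63 points, and 77 (15.1%) were called lower. The gap between the sets turned from above 0 in both 24 h libraries to below 0 in both 48 h libraries, a shift of -13.3 points with exact permutation p = 0.333, the smallest possible. Much of this shift lay in the 24 h level, which was 14.1 points above serum in the first set and 4.66 points above it in the second. Set against serum, the 48 h level was -8.85 points away in the first set and -4.97 in the second. Among tiles at 60% or more in E14 serum, the change was -13.7 points in 5540 tiles higher in TET TKO and -3.28 points in 2425 tiles that differed by less than 5 points. In this upper range the first set started lower, at 77.3% against 87.9% in serum. TET WT and TET TKO were not sampled at 24 h, so their own step was not measured, and genetic background and Tet genotype of those lines against E14 cannot be told apart.

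The tiles called lower from 24 to 48 h were then followed through all 12 E14 libraries, where 4879 of the 5463 had 20 or more calls throughout. They averaged 50.1% ± 0.69 in serum and 67.4% ± 1.56 after 24 h of 2i (SD, n = 2). The mean was then 37.8% ± 0.11 after 48 h and 35.7% ± 0.45 after 72 h. By 96 h it had reached 27.0% ± 0.02 and by 168 h 12.6% ± 0.26. The 24 and 48 h values chose these tiles and are a description. Their level stood above serum at 24 h, dropped at 48 h and was almost level to 72 h. Choosing tiles for a high 24 h and a low 48 h value can also shape the steps on either side. Tiles at 60% or more in serum that were not called (16012) averaged 84.2% ± 0.31 in serum and 83.8% ± 1.12 after 24 h. Their mean was 77.6% ± 0.12 after 48 h, 64.2% ± 0.68 after 72 h, 65.5% ± 0.07 after 96 h and 45.3% ± 0.37 after 168 h. The absence of a call from 24 to 48 h chose that set, which limits its drop in this step and can shape the steps beside it.

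**Figure D3:**
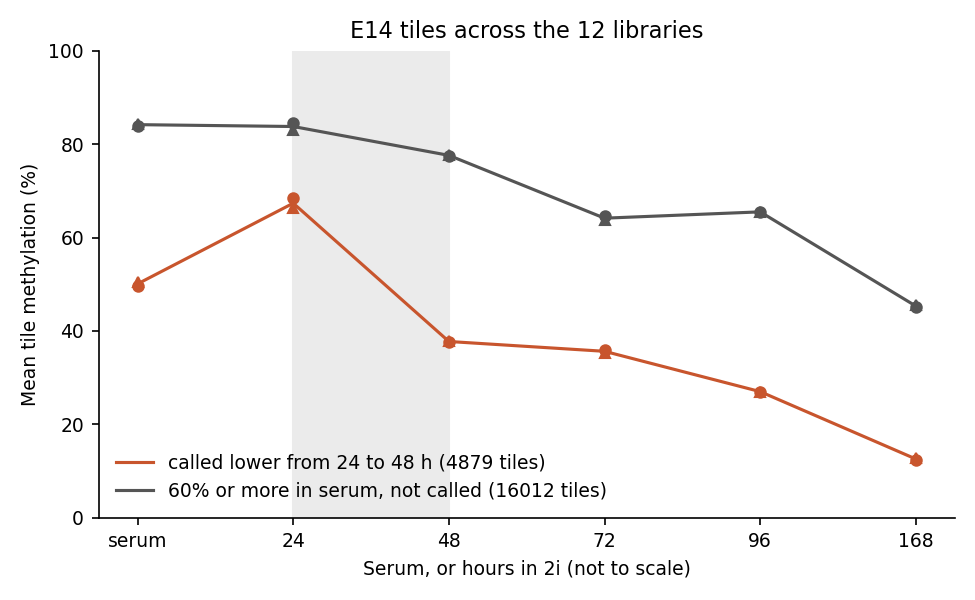
Mean methylation (y axis, percent) in the 12 E14 libraries from serum to 168 h of 2i (x axis, spacing not to scale) for tiles called lower from 24 to 48 h and for methylated tiles that were not called. Lines join the means of 2 libraries, circles and triangles are replicates 1 and 2, and the shaded band is the step that chose the called tiles, where they went from 67.4% to 37.8%.

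Classes set by serum level alone were read the same way. From 24 to 168 h, tiles at 10% to 20% in serum lost 57.4% of their total drop in the 24 to 48 h step, tiles at 20% to 40% 53.55%, tiles at 40% to 60% 42.3%, tiles at 60% to 80% 29.7% and tiles at 80% or more 14.04%. In tiles under 10%, which had little to lose, the share was 32.4%. These shares start from the 24 h level, which stood above serum in each class under 80%. It was 22.0% against 14.5% at 10% to 20% and 41.9% against 29.9% at 20% to 40%. At 80% or more it stood below serum (86.9% against 88.8%). The order of the shares thus rests in part on the 24 h libraries. The neighbouring steps share libraries with this step, so their counts are only set side by side, on the 55777 tiles covered in all 12 libraries. From 24 to 48 h 4929 of these tiles were called lower (8.84%). From serum to 24 h, 28 were called lower (0.0502%) and 1282 higher (2.3%). Limma on arcsine levels made 0 calls in this step, with 8299 tiles at an unadjusted p under 0.05. It also made 0 calls in the step from 48 to 72 h, with 11172 such tiles. From 48 to 72 h, 2559 were called lower (4.59%) and 48 higher (0.0861%), but leaving out either 72 h library left 0 calls, with 8055 and 8806 tiles at an unadjusted p under 0.05. Leaving out 1 library of the serum to 24 h step left 106 to 396 calls, fewest without serum replicate 1.

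The UHRF1 WT line went through the same step in libraries of its own, with 57930 of the tiles covered. Their mean was 39.4% and 39.6% at 24 h and 36.8% and 36.9% at 48 h in UHRF1 WT, a difference of -2.65 points, whereas E14 went from 36.3% and 35.4% to 29.9% and 30.1%, a difference of -5.85 points at the same tiles. UHRF1 WT kept 93.3% of its 24 h level and E14 83.7%. The tiles called lower in E14 also moved in UHRF1 WT: of 5072 that were covered, 2816 (55.5%) had both 48 h libraries below both 24 h libraries, beside 32% of all covered tiles and 40.5% of 16939 uncalled tiles at 60% or more in serum. Their median change in UHRF1 WT was -7.39 points, and that of the uncalled methylated tiles was -3.69 points. These 2 sets were not matched on level, with full-set medians of 51.1% and 86.4% in serum. The called tiles had a mean change of -7.83 points in UHRF1 WT. All covered tiles at 20% to 40% and 40% to 60% in E14 serum changed by -6.52 and -6.88 points in that line. The part of serum level in this contrast was not tested. Their median in E14, -28.3 points, is a description, since the E14 change chose the tiles. Calls in both lines needed 20 points, and the part of serum level in their overlap was not tested. In UHRF1 WT itself 145 tiles were called lower (0.25%), and 72 of these were among the E14 calls. That is 49.7% of the UHRF1 WT calls, where 5072 of all 57930 covered tiles were E14 calls, and 1.42% of those 5072. Limma on arcsine levels made 0 calls in this line (7429 tiles at an unadjusted p under 0.05), and leaving out 1 library left 0 to 47, with 0 without 24 h replicate 2.

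The test of the difference between the lines called 309 of 57930 tiles. It worked on the logit scale, whereas the steps are given in points. E14 fell more in 307 (0.53%) and less in 2 (0.00345%), chromosome 6, 16693001 to 16693500, and chromosome 16, 14319501 to 14320000, where E14 was higher at 48 h than at 24 h. Limma made 0 calls in this test, with 7655 tiles at an unadjusted p under 0.05. Leaving out 1 library left 111 to 331 calls, the fewest without UHRF1 WT 24 h replicate 2. There were 130 without the other UHRF1 WT 24 h library, 190 and 169 without UHRF1 WT 48 h replicates 1 and 2, 180 and 187 without E14 48 h replicates 1 and 2, and 248 and 331 without E14 24 h replicates 1 and 2. At the 309 tiles, which this contrast chose, the median level went from 60.1% to 22.0% in E14 and from 55.0% to 54.6% in UHRF1 WT. They had a median of 32.2% in E14 serum. The UHRF1 WT step was also widest in points in the middle classes, but its ratio to the E14 step was not constant: at 40% to 60% in E14 serum the change was -6.88 points in UHRF1 WT and -19.4 in E14, and at 80% or more -3.63 and -5.13. Levels at 24 h were higher in UHRF1 WT in each of the 6 serum classes.

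**Figure D4:**
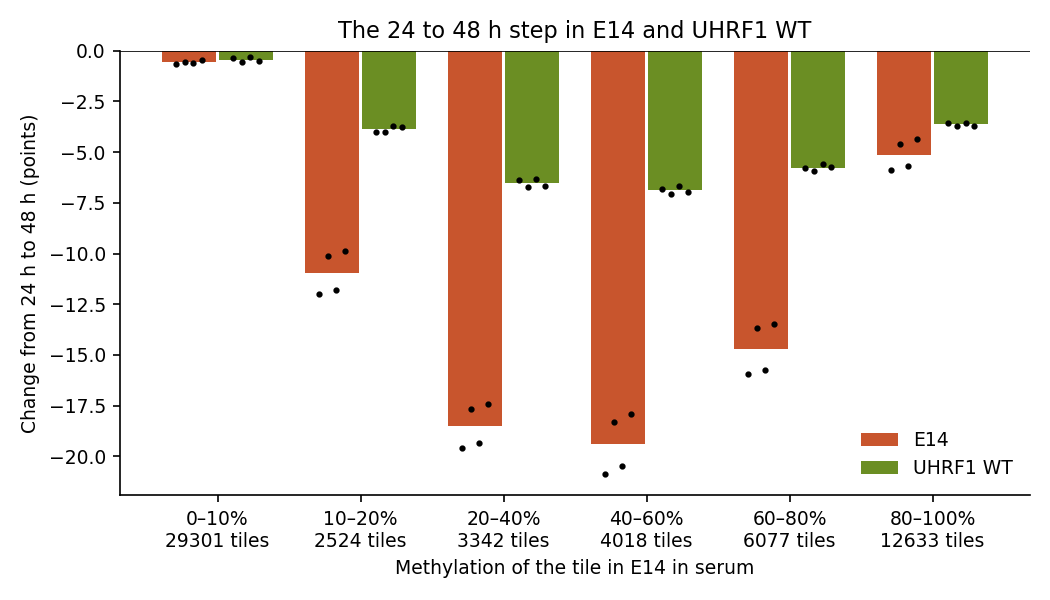
Change of mean tile methylation from 24 to 48 h (y axis, percentage points) in E14 and UHRF1 WT at the same tiles, grouped by level in E14 serum (x axis). Bars are differences of 2-library means and dots the 4 differences between single libraries, and in both lines the middle classes changed most, by -19.4 points in E14 and -6.88 in UHRF1 WT at 40% to 60%.

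UHRF1 KO libraries were shallow, and 25817 mostly CpG-rich tiles were covered in all 3 lines. Among 2063 of these at 60% or more in E14 serum, UHRF1 KO stood at 71.1% and 70.8% at 24 h and at 55.9% and 55.1% at 48 h, a difference of -15.4 points. UHRF1 WT changed by -3.77 points there and E14 by -9.16 points. At the 1098 tiles called lower in E14, UHRF1 KO changed by -12.2 points and UHRF1 WT by -6.87. The E14 change of -28.1 points there chose the tiles, so its place in the order is set by that choice. In single tiles UHRF1 KO had 26 calls, all lower (0.101% of 25823). The quasi-binomial test of the difference between the UHRF1 KO and UHRF1 WT steps called 0 of 25817 (0%), with 850 tiles at an unadjusted p under 0.05. It tested genotype by time on the logit scale, so it is not a test of the steps in points given above. Limma on arcsine levels made 0 calls for this difference, with 2198 tiles at an unadjusted p under 0.05. No RNA was measured in this line, so loss of Uhrf1 was not checked here. Leaving out 1 library left 0 to 8 calls in UHRF1 KO and 0 to 3 in the test of the difference.

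The largest falls were named by rule among called tiles with 40 or more calls and 4 or more positions in each library. The rule also required no overlap between the 24 h and 48 h libraries. Positions are in the mouse build NCBIM37, for which no gene annotation was used here, so the tiles are given by place only. Fall 1, chromosome 5, 134714001 to 134714500, was at 86.0% and 81.0% at 24 h and at 25.4% and 15.4% at 48 h (43 to 65 calls). All 6 of its positions that were read at both times fell. Its pooled change was -63.0 points (adjusted p 1.001e-07 by the quasi-binomial test moderated with limma).

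Fall 2, chromosome 14, 122520501 to 122521000, went from 87.0% and 80.9% to 32.9% and 14.8%. Fall 3, chromosome 7, 6929501 to 6930000, went from 76.9% and 95.1% to 31.0% and 23.2%, with 24 h replicates further apart than in falls 1 and 2. Fall 4, chromosome 12, 34064501 to 34065000, went from 80.5% and 91.3% to 24.1% and 32.9%. In each of these the lowest 24 h library lay above the highest 48 h library, as the naming rule required. Fall 5, chromosome 18, 69773501 to 69774000, went from 78.2% and 64.1% to 16.9% and 11.4%. Fall 6, chromosome 5, 121116001 to 121116500, went from 75% and 74.1% to 17.1% and 22.0%, with the closest 24 h replicates of the 8. Fall 7, chromosome 8, 72674001 to 72674500, went from 78.3% and 57.4% to 12.8% and 9.68%, and fall 8, chromosome 2, 80253001 to 80253500, from 61.9% and 58.3% to 7.14% and 3.13%. The 8 adjusted p-values lay between 3.46e-09 and 1.93e-06. Leaving out 1 library gave adjusted p-values of 0.00436 to 0.037, and limma on arcsine levels gave 0.0958 to 0.104, so none was called by limma.

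Within these 8 tiles, 52 of 53 positions read at both times were lower at 48 h. A position is a single cytosine, so the 2 strands of a CpG count as 2 positions, and nearby positions can share reads. Positions are thus not independent, and their count is a description. Both 24 h libraries lay above both serum libraries in all 8, with serum means from 23.1% to 66.4%, and in 25.9% of the tiles covered in all 12 libraries. At 72 h the mean was above that of 48 h in all 8 and the libraries did not overlap in 5, an order found in 10.2% of those tiles. At 168 h the means lay between 1.25% and 12.3%. Since the tiles were chosen for a high 24 h and a low 48 h value, these orders are a description. In UHRF1 WT, which did not choose them, the same tiles stood at 59.1% to 84.7% at 24 h and at 43.5% to 86.0% at 48 h, and none fell by 20 points. Falls 1, 5, 7 and 8 were lower there without overlap, an order found in 32% of tiles covered in UHRF1 WT. They went from 79.4% to 62.9%, 64.0% to 47.7%, 62.0% to 43.5% and 65.5% to 53.3%. Fall 2 went from 84.7% to 78.4% with overlap, and the means of falls 3, 4 and 6 did not fall. The difference between the lines is a description too, since the choice of tiles fixed the E14 side of it. The variance between replicates within E14 was 0.2003 to 5.77 times that of binomial sampling, highest in fall 3 and next in fall 2 (4.7 times). In serum TET WT had 8.21% to 38.8% at these tiles and TET TKO 52.4% to 88.5%. TET TKO lay above TET WT without overlap in all 8, and in 61.4% of the 53741 tiles covered in those libraries.

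Rises were rare, and 2 of the 7 called tiles met the depth rule. Rise 1, chromosome 11, 11926501 to 11927000, was at 42.5% and 23.2% at 24 h and at 53.4% and 56.0% at 48 h (adjusted p 0.00739, quasi-binomial test moderated with limma). Its serum libraries were at 55.1% and 41.5%, and its means at 72, 96 and 168 h were 37.6%, 32.3% and 37.0%. The call was lost without 24 h replicate 2 (12.4 points, adjusted p 0.4), 48 h replicate 1 (0.118) or 48 h replicate 2 (0.214). Rise 2, chromosome 5, 106161001 to 106161500, was at 18.1% and 22.4% at 24 h and at 37.1% and 49.2% at 48 h (adjusted p 0.000351), with 52.2% and 47.1% in serum. Its later levels were 17.6% and 9.68% at 72 h, 44.4% and 30.1% at 96 h and 34.6% and 24.1% at 168 h. The call of rise 2 was lost without 24 h replicate 1 (adjusted p 0.0778), 24 h replicate 2 (0.0647) or 48 h replicate 2 (16.6 points, 0.121). Of their positions, which are not independent of one another, 15 of 15 and 17 of 18 were higher at 48 h. UHRF1 WT stood at 53.8% and 48.8% at 24 and 48 h in rise 1 and at 21.5% and 20.4% in rise 2, and the quasi-binomial test of the difference between the lines passed in neither (adjusted p 0.163 and 0.0558). The variance between replicates in these tiles was 3.7 and 4.2 times that of binomial sampling.

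**Figure D5:**
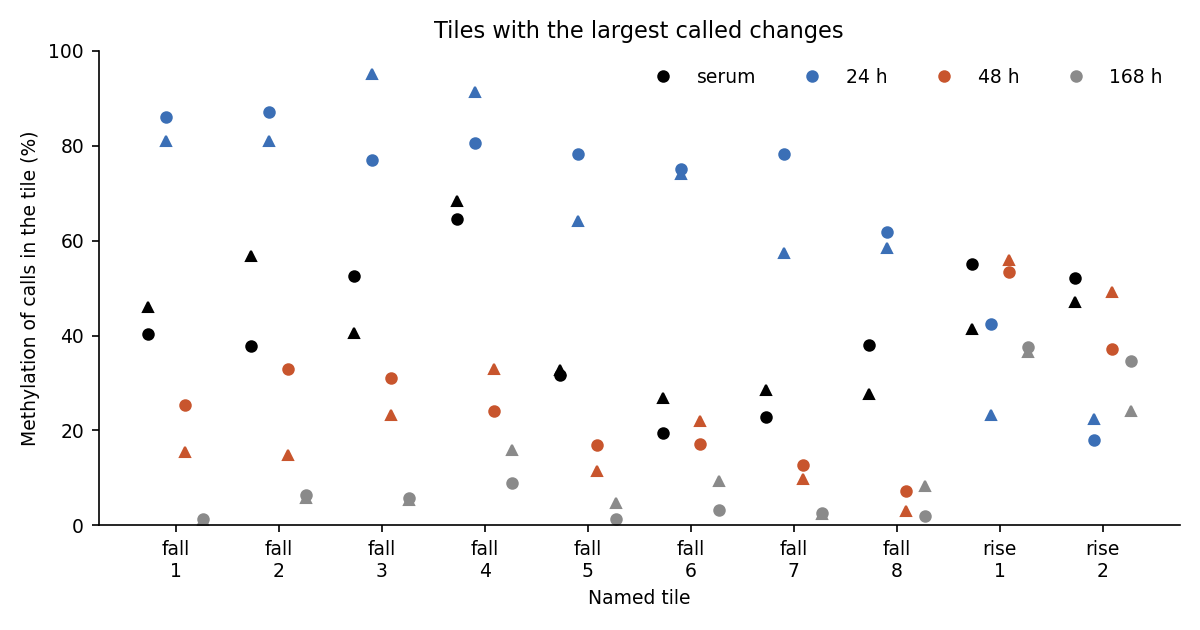
Methylation of calls (y axis, percent) in the 8 named tiles that fell most and the 2 that rose from 24 to 48 h (x axis), in serum and at 24, 48 and 168 h, with circles for replicate 1 and triangles for replicate 2. In falls 1 to 8 the 24 h libraries lie above serum and the 48 h libraries below the 24 h ones, and at 168 h all 8 have means of 12.3% or less.

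The deepest and the densest methylated tiles were named without use of the 24 and 48 h levels. The 6 deepest and the 4 with the most positions made 8 different tiles, 2 being in both sets. Of these 8, 7 had a lower pooled level at 48 h, one of them by only -0.0166 points, and a negative mean change was found in 79.99% of the 20130 tiles at 60% or more in both serum libraries. The libraries did not overlap in 6 of the 8, beside 49.0% of the 20130 tiles. An adjusted p under 0.05 by the quasi-binomial test moderated with limma was found in 5 of the 8, beside 12.6% of all tiles, and none reached 20 points. Each of the 5 lost it when any 1 library was left out (adjusted p 0.0515 to 0.305) and by limma on arcsine levels (0.0993 to 0.149). The largest change was at chromosome 2, 165953501 to 165954000, from 81.4% and 80.1% to 67.4% and 65.6% (360 to 451 calls), with adjusted p 0.00198. Chromosome 7, 53050501 to 53051000, with 34 positions, went from 83.0% and 82.8% to 71.1% and 68.9% (adjusted p 0.003), and chromosome 11, 118752501 to 118753000, also with 34, from 86.8% and 83.0% to 73.5% and 75.3% (adjusted p 0.0251). Both of these had stood lower in serum, at 67.7% and 74.2%.

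Other tiles of this set changed less. Chromosome 10, 86371501 to 86372000, with 36 positions, went from 79.6% and 82.8% to 71.5% and 72.0%, and chromosome 7, 7230501 to 7231000, the deepest tile, from 71.9% and 69.3% to 61.0% and 60.9% (559 to 811 calls), with an adjusted p of 0.0254 by the quasi-binomial test and of 0.174 without positions over 100 calls. Chromosome 12, 20240001 to 20240500, was at 94.5% and 92.8% at 24 h and at 89.97% and 89.1% at 48 h (adjusted p 0.153). Chromosome 13, 104739001 to 104739500, was at 91.8% and 86.6% and then at 89.3% and 93.4% (adjusted p 0.485), and it still held 85.7% at 168 h. The tile with the most positions, chromosome 10, 12810501 to 12811000 (52 positions), was at 94.7% and 82.5% at 24 h and at 87.5% and 88.0% at 48 h. The variance within its groups was 16.6 times that of binomial sampling, and no step was detectable in it (adjusted p 1). Its pooled change was 5.24 points without 24 h replicate 1 and -7.01 without 24 h replicate 2. At 168 h the 8 tiles ranged from 41.1% to 85.7%.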

How the data were processed

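Per the labels and the study's methods, RRBS reads were trimmed and mapped with Trim Galore 0.3.5 and Bismark 0.12.3 to the mouse build NCBIM37. The authors deposited counts of methylated and unmethylated calls per cytosine position. PCR copies carry no molecular identifiers, so calls may hold copies of the same molecule. The precision given covers counting error and the spread between libraries, which may be technical. For the marker check the authors deposited log2 expression values per gene, corrected for length and depth.

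Calls were summed per 500-bp autosomal tile in Python (numpy and pandas). Tiles with 20 or more calls and 3 or more positions in the libraries compared were fitted with a quasi-binomial logistic model per tile. Dispersions were moderated with limma 3.58.1 in R 4.3.3, with the prior taken from tiles of 10% to 90% methylation as a trend on calls and a floor of 1. The prior weighed as much as 47.8 degrees of freedom (2 for the tile itself) and the median dispersion was 1.42. A quasi-F test with Benjamini-Hochberg adjustment over all tiles was used, and a call needed adjusted p under 0.05 and 20 points. Differences between lines were tested as line by time on the logit scale. Means were compared by exact two-sided permutation. The fit was tested on simulated data.

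Tiles were named by these rules: the 8 largest falls and up to 4 largest rises among called tiles with 40 or more calls, 4 or more positions and no overlap, adjacent tiles counted once. Added to these were the 6 deepest tiles (a mean of at most 100 calls per position in each library) and the 4 with the most positions among tiles at 60% or more in both serum libraries. The TET classes, 1-Mb windows, neighbour correlations and position levels were chosen after the data were seen. ChIP windows used positions with at most 20 calls and needed 20 input calls. Members and lists were chosen with earlier results of these data known. No genome or annotation of NCBIM37 was used, so tiles carry no gene names and no sequence is shown. Replicates differed by more than sampling noise (chi-square per tile 1.50 at 24 h and 1.37 at 48 h), so no library was counted as a copy. Alternatives in coverage, tile size, prior, test and libraries were tried.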

Additional observations from a re-analysis of the deposited data

Results flagged for a closer look

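The step differed between E14 and UHRF1 WT, 2 lines under the same change of medium, at 309 of 57930 tiles by the test of line by time. The larger fall was in E14 in 307 of them, or 0.53% of the tiles tested. All 8 of the named tiles that fell most were among these 307. The E14 step minus the UHRF1 WT step, in points of pooled methylation, was -46.2 in fall 1, -55.2 in fall 2, -63.4 in fall 3 and -58.6 in fall 4. It was -40.5 in fall 5, -56.7 in fall 6, -36.9 in fall 7 and -41.8 in fall 8. These tiles were chosen for their step in E14, which makes its part of each difference large. Limma on arcsine levels called 0 tiles in this test, and leaving out 1 library left 111 to 331.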

How the results depend on the processing

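Mean tile methylation was lower at 48 h than at 24 h under each alternative tried, by -6.76 points (1000-bp tiles) to -2.31 (mean over positions), with -3.58 at 50 calls and -2.37 for pooled calls. Leaving out 1 library gave -6.52 to -5.53. With replicate numbers as a replicate block the mean was -6.03. The 5470 E14 calls became 1973 with 50 calls per tile and 3603 with 5 positions per tile, where fewer tiles were tested. They became 0 with limma on arcsine levels. They were also 0 with 1 dispersion prior without trend, taken from tiles of all methylation levels (10795 tiles at an unadjusted p under 0.05). The cause was not tested. Without 24 h replicate 1 there were 1732 calls, without 24 h replicate 2 1260, without 48 h replicate 1 1554 and without 48 h replicate 2 651, in fits with 1 residual degree of freedom in which the lone library was assumed to vary like the others. The replicate block gave 5533, and the deviations of like-numbered libraries had a correlation of -0.00835 over tiles, so the numbers are not taken to pair the libraries. On the tiles covered in all 12 E14 libraries, an alternative chosen after seeing the data, the count was 4934.

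UHRF1 WT calls (145) became 63 at 50 calls, 221 with no minimum difference, 0 with limma on arcsine levels, 232 with the replicate block and 0 to 47 without 1 library (7 and 0 without 24 h replicates 1 and 2, 47 and 2 without 48 h replicates 1 and 2). UHRF1 KO calls (26) became 14 at 10 calls, 4 at 50 calls, 0 with limma (2726 tiles at an unadjusted p under 0.05) and 0 to 8 without 1 library (0 and 1 without 24 h replicates 1 and 2, 8 and 7 without 48 h replicates 1 and 2). The 1310 calls from serum to 24 h became 623 at 50 calls, 1972 with no minimum difference, 0 with limma (8299 at an unadjusted p under 0.05) and 106 to 396 without 1 library (106 and 396 without serum replicates 1 and 2, 270 and 236 without those of 24 h). The 2607 calls from 48 to 72 h became 582 at 50 calls, 0 with limma (11172 at an unadjusted p under 0.05) and 0 to 1322 without 1 library (1322 and 864 without 48 h replicates 1 and 2, 0 without either of 72 h). The difference between E14 and UHRF1 WT (309) became 0 with limma and 111 to 331 without 1 library (248 and 331 without E14 24 h replicates 1 and 2, 180 and 187 without those of 48 h, and 111 to 190 without 1 of UHRF1 WT), and that between UHRF1 KO and UHRF1 WT stayed at 0 except for 0 to 3 without 1 library. The cause was not tested. The replicate block kept the other counts within 1.5 times. Of the 10 called named tiles none was called by limma (adjusted p 0.0958 to 0.234), and all kept their direction. Leaving out 1 library kept the calls of falls 1 to 8 and lost those of rises 1 and 2 in 3 of 4 fits each.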
